A study of Mus musculus with 4 samples.

Results

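RUVBL2 ChIP-seq peaks were examined at the voltage-gated and potassium channel genes of the mouse. The members were the 130 protein-coding genes of a RefSeq gene table of GRCm38.p6 whose symbols begin with Kcn, Cacna or Cacnb, or with Scn or Hcn followed by a digit, out of 21779 protein-coding genes on the assembled chromosomes. By their names, 101 encode pore-forming subunits and 29 encode accessory subunits, and none was left unclassed. The chromatin came from the hypothalamus of wild-type (WT) male C57BL/J mice aged 8 weeks, fixed with 1% formaldehyde for 10 min. The series holds 2 libraries pulled down with an antibody against RUVBL2 (replicates 1 and 2) and 2 input libraries. The tissue was the whole hypothalamus and not sorted cells, and the labels do not say whether the replicates were separate animals. The values used were the peak lists of the 2 RUVBL2 ChIP libraries, with 3943 peaks in replicate 1 and 6403 in replicate 2. The peak names inside the list of replicate 2 carry another library number than the sample's title, so that list was assigned by its deposited sample record, and which library it came from could not be checked further. Overlapping peaks of both lists formed 3111 shared regions. The input libraries entered through no values of their own here.

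Voltage-gated sodium, calcium and potassium channels open when the membrane potential changes and shape the action potential, while inward rectifier and leak potassium channels hold the resting potential. The pore subunit forms the path for the ion, and accessory subunits alter gating, trafficking or stability without conducting. In hypothalamic neurons these channels set firing rate and transmitter release. RUVBL2 is an AAA+ ATPase that works with RUVBL1 in the INO80, SRCAP and TIP60 chromatin complexes and in the assembly of large protein complexes.

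Few channel genes held a region that both libraries listed. A shared region lay within 3 kb of a gene end in 3 of the 130 genes (2.31%), against 16.0% of all protein-coding genes, and at an end or in the body in 7 (5.38%), against 17.2% of all protein-coding genes. They included the pore genes Cacna1c, Cacna1d, Kcnh6 and Kcnma1 and the accessory genes Cacnb3 and Kcne2. Within 3 kb of an end, the list of replicate 1 had a peak at 7 members (5.38%, against 19.4% of all protein-coding genes) and that of replicate 2 at 16 (12.3%, against 30.4%). With the body included, these were 13 members in replicate 1 (10.0%, against 20.9%) and 24 in replicate 2 (18.5%, against 32.6%). A peak in either list was found at 30 members (23.1%, against 35.8%), of which 6 had one in replicate 1 only (4.62%, against 3.14%) and 17 in replicate 2 only (13.1%, against 14.9%). The other 100 members held no peak, and for them the nearest peak lay a median of 166 kb away in replicate 1 and 85.2 kb in replicate 2. No test was run on these shares, since the members were chosen with results of these data known.

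Pore and accessory genes kept no fixed order. Shared regions at an end or in the body were found in 4 of 101 pore genes (3.96%) and 3 of 29 accessory genes (10.3%). In replicate 1 the shares were 9.90% of pore genes (10 genes) and 10.3% of accessory genes (3 genes). In replicate 2 they were 18.8% of pore genes (19 genes) and 17.2% of accessory genes (5 genes). Both classes stood below all protein-coding genes in each list. Accessory genes were shorter, with a median length of 48.0 kb for pore genes and 24.1 kb for accessory genes, against 17.2 kb for all protein-coding genes.

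**Figure D1:**
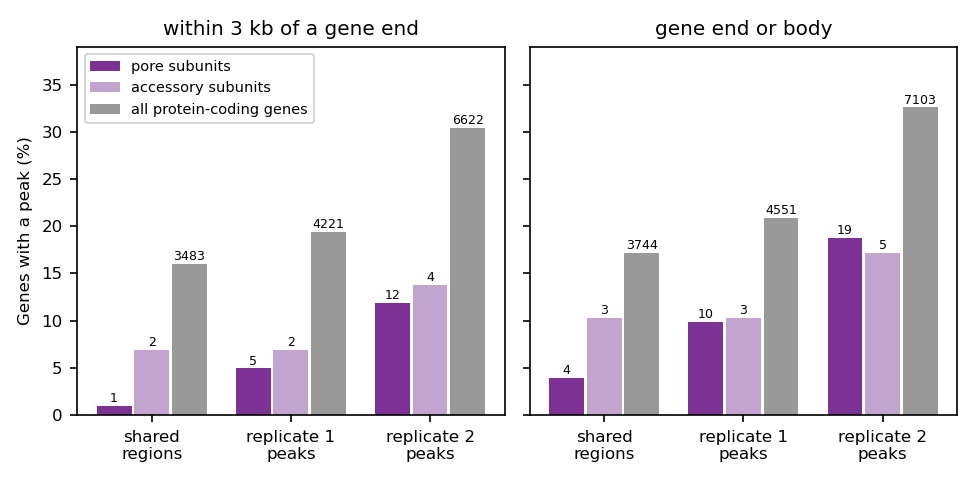
Share of genes with a RUVBL2 peak, in percent, within 3 kb of a gene end (left) and at an end or in the body (right), for pore subunit genes, accessory subunit genes and all protein-coding genes; the number above a bar is the number of genes. The channel bars lie below the bar of all protein-coding genes in each list, while pore genes are at 18.8% and accessory genes at 17.2% in replicate 2 on the right, the reverse of the order in the shared regions.

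The one shared region over a listed start of a pore gene was that of Kcnma1, which encodes the pore of the large-conductance (BK) calcium- and voltage-activated potassium channel. Its shared region (chr14:24003951-24004696, GRCm38) lay 786 bp inside the gene's higher end and covered the start listed by RefSeq. The fold enrichment at the summit, as the authors' peak caller gave it over its own background, was 5.24 in replicate 1, with a 95% counting interval from 3.13 to 8.32. In replicate 2 it was 3.43 (1.94 to 5.69). The summit pileups, the number of reads or fragments stacked at the summit, were 16 and 13. The peak stood at rank 1546 of 3943 in replicate 1 but at rank 6144 of 6403 in replicate 2, so it was near the foot of the longer list. The summits lay 39 bp downstream of the start in replicate 1 and at -91 bp, upstream of it, in replicate 2. An lncRNA gene, 4930519K11Rik, begins on the other strand 667 bp from the region's centre.

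Among accessory genes, Cacnb3 held a region to which no other protein-coding gene was nearer. Cacnb3 encodes a beta subunit that brings high-voltage-activated calcium channels to the membrane. Its region (chr15:98634703-98635010) lay 6420 bp from the nearer gene end and was counted as interior, yet it covered the second of the 2 starts that RefSeq lists for the gene. The summits stood 38 and 44 bp downstream of that start in replicates 1 and 2. The folds were 4.62 (2.67 to 7.55) in replicate 1 and 4.66 (2.78 to 7.40) in replicate 2, on 14 and 16 reads. The replicates gave like values, with intervals that overlap almost in full.

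The promoter windows under the shared regions of Kcnma1 and Cacnb3 are printed from RefSeq (GRCm38.p6; 250 bases before to 50 bases after the listed start, 5′ to 3′ on the gene's strand) because they are the channel promoters covered in both lists. Beside them stands Cacna2d1, whose promoter was covered in replicate 2 only and holds the most GC boxes of the covered channel promoters. Capitals mark matches to the motifs searched. The windows are chr14:24004156-24004455 on the minus strand for Kcnma1, chr15:98634517-98634816 on the plus strand for Cacnb3 and chr5:15934441-15934740 on the plus strand for Cacna2d1.
Kcnma1: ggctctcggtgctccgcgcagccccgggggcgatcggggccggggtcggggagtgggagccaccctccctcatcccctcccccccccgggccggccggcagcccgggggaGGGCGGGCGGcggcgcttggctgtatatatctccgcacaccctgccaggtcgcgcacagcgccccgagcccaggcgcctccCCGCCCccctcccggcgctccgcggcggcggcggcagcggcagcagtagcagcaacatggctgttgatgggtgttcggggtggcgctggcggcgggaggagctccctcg
Cacnb3: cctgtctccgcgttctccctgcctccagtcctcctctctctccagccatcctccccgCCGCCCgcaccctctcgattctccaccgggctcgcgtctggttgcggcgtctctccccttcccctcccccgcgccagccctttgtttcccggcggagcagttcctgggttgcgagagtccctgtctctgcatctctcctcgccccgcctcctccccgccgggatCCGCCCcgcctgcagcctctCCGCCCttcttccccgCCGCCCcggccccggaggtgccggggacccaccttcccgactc
Cacna2d1: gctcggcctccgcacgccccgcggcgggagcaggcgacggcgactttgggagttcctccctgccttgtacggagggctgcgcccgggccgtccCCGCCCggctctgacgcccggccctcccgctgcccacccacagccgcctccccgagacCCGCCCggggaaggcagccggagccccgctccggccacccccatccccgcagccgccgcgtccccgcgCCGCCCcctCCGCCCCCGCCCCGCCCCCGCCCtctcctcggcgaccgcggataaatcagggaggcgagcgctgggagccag
The windows were 78.0% G and C in Kcnma1, 72.0% in Cacnb3 and 80.0% in Cacna2d1. The GC box (GGGCGG, or CCGCCC on the other strand), the letters bound by Sp factors, occurred 3 times in Kcnma1, 4 times in Cacnb3 and 7 times in Cacna2d1. In Kcnma1 the first 2 copies overlap by 2 bases and lie at -140 and -136 from the start.

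At the L-type calcium channel genes the shared regions lay at the starts of other genes. Cacna1c encodes the pore of Cav1.2 and spans 610 kb on the minus strand. Its region (chr6:119174891-119175639) gave a fold of 4.37 (2.56 to 7.02) in replicate 1 and one of 5.57 (3.65 to 8.18) in replicate 2, on 15 and 24 reads, the best pair of ranks among the members (2698 and 1980). The region was centred 22119 bp inside the gene and 12 bp downstream of the listed start of Dcp1b, a subunit of the mRNA decapping complex, which is read from the plus strand and overlaps Cacna1c by 22132 bp. Cacna1d encodes the pore of Cav1.3. Its region (chr14:30479401-30479943) gave a fold of 4.51 (2.77 to 6.98) in replicate 1 and one of 2.48 (1.56 to 3.76) in replicate 2, on 18 and 20 reads. It was centred 11484 bp inside the gene and 107 bp downstream of the listed start of Dcp1a, the paralogue of Dcp1b, which overlaps Cacna1d by 11671 bp, again on the opposite strand. The 2 channel genes thus share an arrangement in which a decapping gene starts inside them.

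The windows at the Dcp1 starts are printed because they are the sequence under the regions counted for Cacna1c and Cacna1d (RefSeq, GRCm38.p6, plus strand, chr6:119175003-119175302 for Dcp1b and chr14:30479315-30479614 for Dcp1a; capitals as above).
Dcp1b: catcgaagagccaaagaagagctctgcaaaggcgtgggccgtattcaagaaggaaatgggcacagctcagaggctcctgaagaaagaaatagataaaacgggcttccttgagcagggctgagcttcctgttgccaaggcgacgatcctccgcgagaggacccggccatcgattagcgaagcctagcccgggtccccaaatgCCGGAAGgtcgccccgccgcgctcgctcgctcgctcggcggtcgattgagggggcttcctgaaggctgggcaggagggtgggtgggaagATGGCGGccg
Dcp1a: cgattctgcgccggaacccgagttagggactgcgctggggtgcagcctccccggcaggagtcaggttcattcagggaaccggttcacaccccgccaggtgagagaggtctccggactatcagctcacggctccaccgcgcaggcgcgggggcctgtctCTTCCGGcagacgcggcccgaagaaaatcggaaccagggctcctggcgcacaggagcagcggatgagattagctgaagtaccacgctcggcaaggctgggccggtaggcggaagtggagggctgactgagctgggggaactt
Each window holds 1 match to the ETS letters CCGGAAG, printed as CTTCCGG in Dcp1a, and neither holds a GC box. ETS letters were found in 24.4% of the promoter windows of protein-coding genes that a shared region covers, and in 11.6% of all 21263 windows. The Dcp1b window also holds the YY1 core ATGGCGG, found in 16.4% of the windows that a shared region covers and in 5.25% of all windows.

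The third region with a nearer neighbour was that of Kcne2, a single-span subunit that modifies several potassium channels. Its centre lay 2899 bp beyond the gene, just inside the 3 kb limit, and at -270 bp from the listed start of Smim11, which encodes a small membrane protein. The folds were 4.37 (2.61 to 6.93) in replicate 1 and 3.82 (2.48 to 5.66) in replicate 2, on 16 and 23 reads. Just outside the limit lay the region next to Kcnk4, a mechanosensitive leak channel, centred 3639 bp from its end and 25 bp from that of the nuclear receptor gene Esrra. Of the 7 members with a shared region, 4 (57.1%) had the nearest protein-coding gene end, against 79.1% of the 3744 protein-coding genes with one. With each region given to the nearest protein-coding end only, 2 of 101 pore genes (Kcnh6 and Kcnma1) and 2 of 29 accessory genes held one, against 13.6% of all protein-coding genes.

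**Figure D2:**
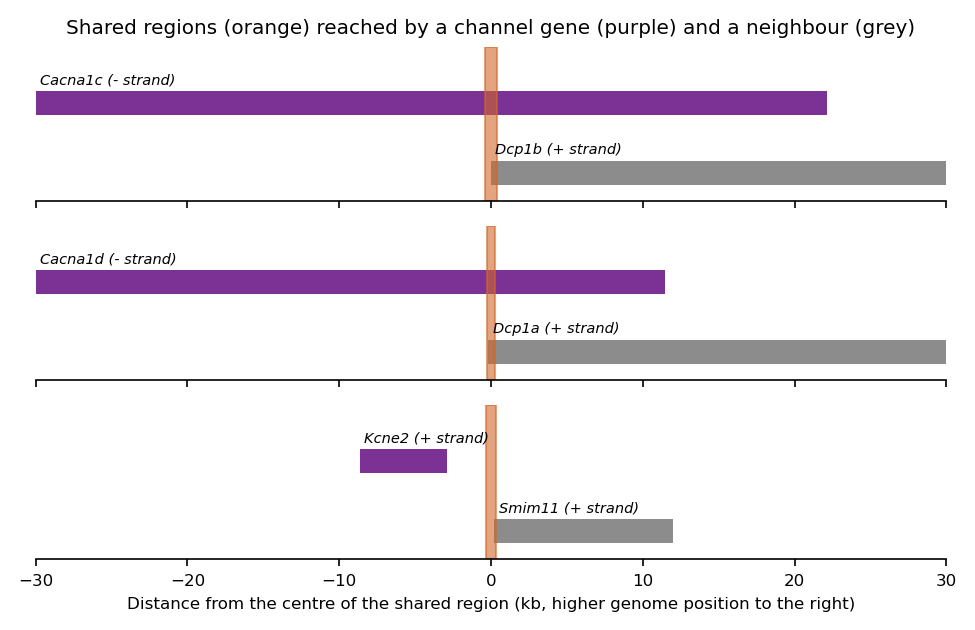
Position of 3 shared RUVBL2 regions (orange) against the channel gene (purple bar) and its neighbour (grey bar), in kb from the centre of the region, cut at 30 kb on each side. Each region sits at the start of the grey gene: 12 bp from the listed start of Dcp1b inside Cacna1c, 107 bp from that of Dcp1a inside Cacna1d, and -270 bp from that of Smim11 beyond Kcne2.

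The last shared region was the weakest in replicate 1. Kcnh6 encodes a pore subunit of the ether-a-go-go-related (ERG) potassium channels. Its region (chr11:106020107-106020807) lay 12413 bp from the nearer gene end and gave a fold of 3.39 (1.79 to 5.98) in replicate 1 and one of 4.11 (2.37 to 6.72) in replicate 2, on 10 and 14 reads. The peaks overlapped by only 124 bp with summits 271 bp apart, and the region was lost where summits had to lie within 250 bp or peaks had to overlap by 50%. The 50% rule also dropped Cacna1c, where the peaks shared 260 of 749 bp. The end of an lncRNA gene, Gm35971, lay 283 bp from its centre.

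**Figure D3:**
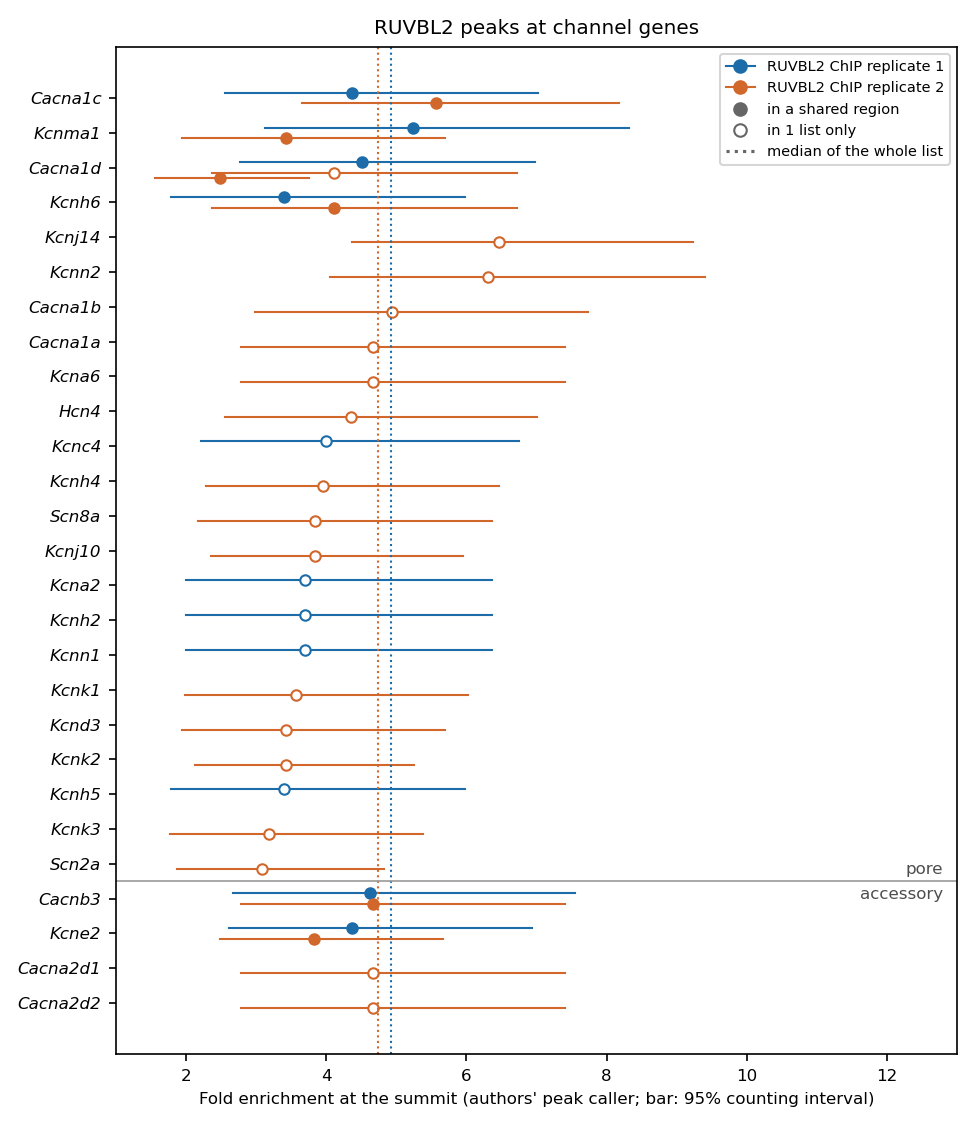
Fold enrichment at the summit (x axis, the authors' values) of the peaks at 27 of the 30 channel genes with a peak, pore genes above and accessory genes below; bars are 95% counting intervals, filled points lie in a shared region, open points in 1 list only, and dotted lines mark the median of each whole list. Most points lie left of the medians (4.93 in replicate 1, 4.74 in replicate 2), with Kcnj14 (6.46) and Kcnn2 (6.31) in replicate 2 farthest to the right.

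No channel peak was among the strongest of its list. For the 13 in replicate 1 the fold had a median of 4.0 and the pileup one of 12, against 4.93 and 16 over all its peaks. For the 25 in replicate 2 the medians were 4.11 and 16, against 4.74 and 22. None was among the 1000 best peaks by p of its list, where the best ranks were 1546 in replicate 1 (Kcnma1) and 1161 in replicate 2 (Kcnj14). Of the 13 peaks in replicate 1, 7 (53.8%) lay in a shared region, against 80.1% of all its peaks. In replicate 2 it was 7 of 25 (28.0%), against 48.8%. Several peaks have equal values because they rest on the same whole number of reads over the lowest background of the list. Kcna2, Kcnh2 and Kcnn1 each had a fold of 3.70 on 11 reads in replicate 1.

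Voltage-gated potassium channel pores were the largest family, with 40 genes, of which 10 held a peak in either list (against 35.8% of all protein-coding genes) and 1, Kcnh6, a shared region (against 17.2%). Replicate 1 alone listed Kcna2, the Kv1.2 pore found along axons, with a fold of 3.70 (2.00 to 6.37) and its summit at -366 bp from the listed start. It also listed Kcnc4, a fast Kv3 pore (4.0, 2.21 to 6.75), Kcnh2, the ERG1 pore (3.70, 2.00 to 6.37), and Kcnh5, an ether-a-go-go pore (3.39, 1.79 to 5.98). Replicate 2 alone listed Kcna6, a Kv1 pore (4.66, 2.78 to 7.40), Kcnh4 (3.96, 2.28 to 6.46) and Kcnd3, an A-type Kv4 pore (3.43, 1.94 to 5.69). The Kcnh4 peak lay 55 bp from the end of Rab5c. None of the 10 silent pore genes (Kcnf, Kcng, Kcns and Kcnv), whose products work only beside other Kv subunits, held a peak. Kcna1, Kcnc1, Kcnd2, Kcnh7 and Kcnq3 held none either. The silent pore genes are few, and whether they differ from other genes was not tested.

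The calcium channel pores had a peak in either list in 4 of 10 genes, against 35.8% of all protein-coding genes, and a shared region in 2, against 17.2%. Those 2 were Cacna1c and Cacna1d, whose shared regions lay at the starts of Dcp1b and Dcp1a. Replicate 2 alone listed Cacna1b, the N-type pore of presynaptic terminals, with a fold of 4.94 (2.99 to 7.74) and its summit 643 bp downstream of the listed start, and Cacna1a, the P/Q-type pore, with 4.66 (2.78 to 7.40) in the interior, 77101 bp from an end. In Cacna1d, replicate 2 had a further peak (4.11, 2.37 to 6.72) at -355 bp from a listed internal start. The T-type pore genes Cacna1g, Cacna1h and Cacna1i held none. Of the 4 alpha2delta genes, whose products raise the number of channels at the membrane, 2 had a peak in replicate 2, against 32.6% of all protein-coding genes. They were Cacna2d1 and Cacna2d2, each with a fold of 4.66 (2.78 to 7.40), with summits 104 and 233 bp downstream of a listed start. Cacnb4 held no peak within reach, the nearest shared region being centred 3525 bp from its end and 79 bp from that of Arl5a.

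Sodium channel pores had peaks in 2 of 10 genes, both in replicate 2 only. Of all protein-coding genes, 32.6% had a peak in replicate 2, and 14.9% had one in replicate 2 only. Scn8a, the Nav1.6 pore of the axon initial segment, had a fold of 3.84 (2.17 to 6.37), 442 bp downstream of a listed start. Scn2a, the Nav1.2 pore, had 3.08 (1.87 to 4.83) at -231 bp from a listed internal start, the lowest fold among the pore genes listed in 1 library only. Scn1a, the Nav1.1 pore, held none, and the nearest peaks lay 13740 bp from it in replicate 1 and 13694 bp in replicate 2. Of the 4 HCN genes, which carry the hyperpolarisation-activated current, 1 had a peak in replicate 2, against 32.6% of all protein-coding genes. That gene was Hcn4 (fold 4.36, 2.56 to 7.01), with the summit 310 bp downstream of its listed start. Hcn2 had no peak.

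Among the 15 inward rectifiers, peaks were listed at 2, Kcnj14 and Kcnj10, in replicate 2 only, and both lay nearer another gene. The share of all protein-coding genes was 32.6% for any replicate 2 peak and 14.9% for replicate 2 only. The Kcnj14 peak had the highest fold of any member (6.46, 4.37 to 9.24, on 28 reads) but lay 211 bp from the end of Cyth2, and the Kcnj10 peak (3.84, 2.36 to 5.95) lay 129 bp from that of Pigm. No peak was listed at Kcnj11, the pore of the ATP-sensitive channel through which neurons sense glucose, where the nearest lay 173718 bp away in replicate 1 and 230621 bp in replicate 2. Kcnj13, the Kir7.1 pore reported to couple to the melanocortin receptor MC4R in mouse hypothalamus, held none either, with the nearest at 170293 and 57176 bp. The GIRK genes Kcnj3 and Kcnj6 held none. Whether a minority of the tissue's cells carried RUVBL2 at these genes was not tested.

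Of the 14 leak channel genes, 3 had a peak in replicate 2, against 32.6% of all protein-coding genes. Kcnk2, the TREK-1 pore, had a fold of 3.43 (2.13 to 5.25) with the peak over 1 of its 4 listed starts and reaching into the promoter window of another, 59076 bp from the gene's nearer end. Kcnk1 had 3.57 (1.98 to 6.02), and Kcnk3, the TASK-1 pore, had 3.19 (1.77 to 5.38). The Kcnk3 peak was centred 431 bp from the nearer Kcnk3 end but 18 bp from an end of the lncRNA gene Gm9899. An end of the lncRNA gene A430027H14Rik lay 655 bp from the centre of the Kcnk2 peak. In the group of 8 calcium- or sodium-activated potassium channel pores and their relatives, 3 held a peak in either list, against 35.8% of all protein-coding genes. Kcnn2, a small-conductance (SK2) pore, had a fold of 6.31 (4.06 to 9.41) on 22 reads in replicate 2. That peak lay deep in the gene and 320 bp from the end of the lncRNA gene Gm32139. Kcnn1 had 3.70 (2.00 to 6.37) in replicate 1. The 4 BK beta genes, Kcnmb4 among them, and the 3 Kv beta genes, Kcnab2 among them, held no peak in either list. Nor did the 4 Kv channel-interacting protein genes, Kcnip3 among them. Of all protein-coding genes, 35.8% held one.

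RefSeq lists a transcription start for 95 of the 130 members. In replicate 1, 3 of 11 pairs of a peak and a channel gene (27.3%) had the summit within 500 bp of a listed start, against 77.3% of 4007 pairs over all protein-coding genes. In replicate 2 it was 10 of 19 (52.6%), against 76.3% of 6436. The median distances were 2101 and 442 bp at channel genes, against 216 and 207 bp over all genes. Some starts may be missing from the listing. Kcnh2, Kcnc4 and Kcnn1 lie on the minus strand, so they begin at their higher end. Their replicate 1 peaks lay 116, 233 and 251 bp from that end, yet the summits were at -22036, -1235 and -2101 bp from the nearest listed start. How far this lowered the channel shares was not tested. Shared regions overlapped the 300 bp promoter window of 2 of the 95 genes (2.11%), against 14.4% of 17492 protein-coding genes with an entry.

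**Figure D4:**
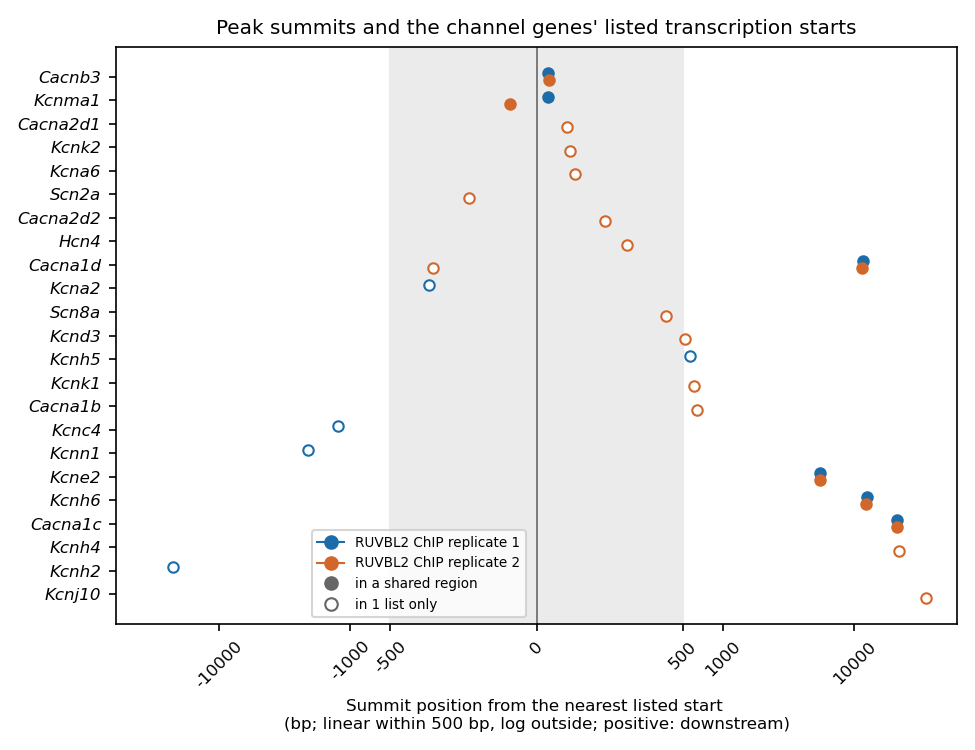
Position of each peak summit relative to the nearest transcription start that RefSeq lists for the channel gene, in bp on an axis that is linear within 500 bp (shaded) and logarithmic outside, positive downstream. Among genes with a shared region (filled points), Cacnb3 and Kcnma1 lie within 91 bp of a start, while Cacna1c, Cacna1d, Kcne2 and Kcnh6 lie 5490 to 21067 bp downstream.

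The base composition of promoters with and without a peak was compared. The 9 channel windows covered by a peak of either list belonged to 8 genes. Their median was 71.7% G and C, with a median CpG ratio (observed over expected from the C and G content) of 0.842. The 121 channel windows without a peak had 57.7% and 0.414. Over all protein-coding genes the medians were 64.3% and 0.859 in the 5660 windows with a peak, and 53.0% and 0.364 in the 15603 without. Kcna6 (58.3%, ratio 0.384) and Scn2a (47.7%, ratio 0.529) were the covered channel windows with the lowest CpG ratios. The Scn2a window (chr2:65668436-65668735, plus strand) is printed because it differs in composition from the windows above and was the only covered channel window with the TATA letters TATAAA, in capitals.
Scn2a: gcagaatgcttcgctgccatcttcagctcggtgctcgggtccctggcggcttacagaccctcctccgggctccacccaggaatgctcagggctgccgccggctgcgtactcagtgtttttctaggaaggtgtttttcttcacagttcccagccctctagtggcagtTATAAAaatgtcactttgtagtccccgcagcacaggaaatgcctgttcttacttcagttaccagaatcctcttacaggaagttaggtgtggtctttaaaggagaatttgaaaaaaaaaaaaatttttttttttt
TATAAA, searched on both strands, occurred in 4.38% of all covered windows, 15.6% of those not covered and 12.6% of all windows. Of the covered channel windows, 6 of 9 held a GC box (66.7%), against 73.0% of all covered windows. The ETS letters were in 1 of 9 (11.1%), against 24.1%, and the CCAAT letters in 1 of 9 (11.1%), against 33.9%. These matches lay in separate Kcnk2 windows that a single replicate 2 peak reached. The CRE core TGACGT was in 1 of 9 (11.1%), against 15.2%. The NRF1 core CATGCGC, the E-box CACGTG and the YY1 core were in none of the 9; they occurred in 8.96%, 10.7% and 13.2% of all covered windows.

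**Figure D5:**
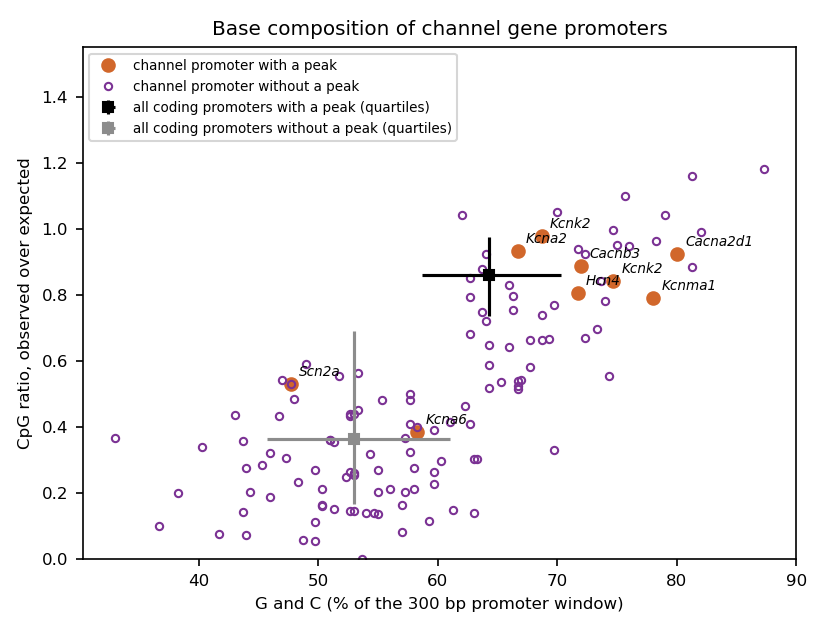
Base composition of the 130 RefSeq promoter windows of channel genes, with G and C in percent on the x axis and the CpG ratio on the y axis; filled points were covered by a RUVBL2 peak in either list, and squares with bars give the median and quartiles over all protein-coding genes. Of the 9 covered windows, 7 lie above a ratio of 0.6, and many windows of like composition were not covered.

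Many CpG-rich channel promoters had no listed peak. Among windows with a CpG ratio of at least 0.6 and at least 50% G and C, 7 of 42 channel windows (16.7%) were covered in either list, against 51.4% of all 9600 such windows. For pore and accessory genes the shares were 5 of 30 (16.7%) and 2 of 12 (16.7%). Of the other windows, 2 of 88 channel windows (2.27%) were covered, against 6.18% of all such windows. CpG-rich windows made up 32.3% of the channel windows and 45.1% of all windows.

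Channel genes were also set beside all genes of like length. At an end or in the body, shared regions were found in 1 of 21 channel genes under 10 kb (4.76%, against 11.3% of all protein-coding genes of that length). They were found in 3 of 46 from 10 to 50 kb (6.52%, against 20.0%) and in 0 of 36 from 50 to 200 kb (against 23.6%). Over 200 kb it was 3 of 27 (11.1%, against 12.9%), where Cacna1c and Cacna1d count through the decapping genes. All 3 in the last class were pore genes, and none of the 8 accessory genes of that length held one.

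Genes that work with the channels, but fall outside the symbol rule, were counted in the same way. Of 50 genes of channel partners, chloride channels, sodium pumps and regulators, 5 held a shared region (10.0%, against 17.2% of all protein-coding genes), 7 a peak in replicate 1 (14.0%, against 20.9%) and 19 in replicate 2 (38.0%, against 32.6%). The shared ones included Calm2, which encodes the calmodulin that gates SK and tunes calcium channels, and the chloride transporters Clcn4 and Clcn6. Calm2 gave a fold of 6.72 (4.36 to 9.94) in replicate 1 and one of 7.59 (5.48 to 10.3) in replicate 2, at ranks 428 and 354. Rest, the repressor of many neuronal channel genes, had a peak in replicate 1 only (4.01, 2.22 to 6.77). Among tissue markers, a shared region was found at 1 of 6 neuronal genes (Rbfox3, 16.7%) and 1 of 8 hypothalamic genes (Pomc, 12.5%). The share of all protein-coding genes was 17.2%, and the other neuronal and hypothalamic markers held no shared region. In replicate 2 a peak was listed at 3 of 6 neuronal genes, against 32.6% of all protein-coding genes. Besides Rbfox3 these were Tubb3 (fold 5.75, 3.8 to 8.39) and Stmn2 (3.53, 1.95 to 5.96), both in that list only. No hypothalamic marker but Pomc had a peak in either list. The astrocyte, oligodendrocyte, microglia, muscle and liver lists, of 4 or 5 genes each, held no peak in either list. RUVBL2 peaks are not a measure of expression, so these markers do not verify the tissue.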

How the data were processed

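Each RUVBL2 ChIP library had a deposited peak list and summit list, so peaks were called per library. The submitters' processing notes name build GRCm38 and, with no order or role, MACS2 2.1.0, ChIPseeker, Bowtie2 2.3.4.1, bcl2fastq 2.17 and Trimmomatic 0.33. Caller settings and the control used were not given in the sources used here. Each peak of the deposited lists carries a fold enrichment (a ratio), a −log10 p-value, a −log10 q-value and a score of the authors' caller. The lists also give the summit position.

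Total reads are unknown. Summit pileup and background were solved from fold and p. A whole pileup matched 3943 of 3943 peaks in replicate 1 and 6402 of 6403 in replicate 2 within a relative tolerance of 0.0001. On simulated peaks 1000 of 1000 pileups were recovered. The simulated peaks were made with the same formulas, over a narrower range of backgrounds than the lists hold. Their recovery checks the solving step only, and not that a pileup is a true read count. The 95% intervals are exact Poisson intervals of the pileup, for counting error only.

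Shared regions joined peaks that overlapped by at least 1 bp. A region or peak counted for a gene when its midpoint lay within 3 kb of a gene end or in the body. The RefSeq gene table gives no strand, so starts came from the RefSeq promoter table (95 of 130 members). On 1843 pairs of opposite-strand windows that overlap, all 1843 were reverse complements, so its sequences read 5′ to 3′. A planned search of proteins was not run. Some genes count in the totals but are not reported here by name. Members, lists and alternatives were chosen with earlier results of these data known. Named genes were, by rule, all members with a shared region, up to 10 per library with a peak in 1 list, and 30 fixed genes; the remaining names were chosen after their values were seen, as were the CpG classes, the 500 bp distance to starts and the nearest-neighbour figures. Python 3.11.15, SciPy 1.17.1 and pandas 2.3.3 were used.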

Additional observations from a re-analysis of the deposited data

How the results depend on the processing

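At a −log10 q of at least 5 in both lists, a shared region was left at 0 of the 130 channel genes, whether at an end or in the body. This held for pore and accessory genes alike. Of all protein-coding genes, 8.50% kept one at an end or in the body. With a window of 10 kb, 12 members had one at an end (9.23%, against 19.9% of all protein-coding genes). At an end or in the body it was 15 (8 pore and 7 accessory genes), or 11.5% against 20.4%. With the nearest gene end only, 4 members were left (3.08%, against 13.6%), 2 of them pore genes. With 50% overlap, 2 pore genes were left (1.98%, against 12.3% of all protein-coding genes). With 1 library alone, in place of both, members at an end numbered 7 to 16, at an end or in the body 13 to 24, among pore genes 10 to 19 and among accessory genes 3 to 5; the lower value is replicate 1 in each case. Counts under the other alternatives stayed within 1.5 times the reported ones. Alternatives with listed starts, without silent pore genes and without Kcne2 were added after seeing the data. In every alternative run except the 10 kb window for accessory genes (24.1%, against 20.4%), the share among channel genes was below that of all protein-coding genes. At each member that the 10 kb window added to the count at an end or in the body, another protein-coding gene end lay nearer the region. No paired analysis was possible because the input libraries had no values here and no result comes from a test. The member peaks have summit pileups of 10 to 28; total reads are unknown, so what depth allowed to be seen was not tested.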
